A study of Mus musculus with 8 samples.

Results

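Il2ra, Il2rb, Il2rg, Il7r, Il4ra, Il21r, Il6ra, Il6st, Il10ra and Il27ra encode chains of the receptors for IL-2 and for other cytokines that act on T cells. These 10 genes were chosen by name, with earlier results of these data known. All 10 were among the 20172 genes of the table and among the 13990 that were tested. RNA was sequenced from regulatory T cells (Tregs) that expressed TNFR2, a receptor for tumor necrosis factor (TNFR2+ Tregs), and from Tregs that did not (TNFR2- Tregs), with 4 libraries each. Both populations came from spleens of young adult Foxp3 CreYFP mice (female by the series description, both sexes by the general methods of the study), in which Cre fused to a yellow fluorescent protein is made from the Foxp3 locus, and were sorted as live YFP+ cells from enriched CD4+ T cells. No other allele or treatment distinguished the groups, and although the study gives the number of samples, neither it nor the labels state that each library came from a separate mouse, so p-values measure only the spread between these libraries.

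Cytokine receptors of this kind have no kinase of their own. Their chains pair on binding of the cytokine and bring together Janus kinases (JAKs), which activate STAT transcription factors. The IL-2 receptor joins an alpha chain that raises affinity (Il2ra, CD25), a signalling beta chain shared with the IL-15 receptor (Il2rb, CD122) and the common gamma chain (Il2rg), which also serves the receptors for IL-4, IL-7 and IL-21. Tregs make little IL-2 and depend on IL-2 from other cells, which signals through STAT5 and maintains Foxp3. The receptors for IL-6 and IL-27 share another signalling chain, gp130 (Il6st).

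Of the 10 chains, 3 passed the test. Il2rb rose 1.80-fold in TNFR2+ Tregs, whereas Il4ra was 2.09-fold and Il6ra 2.46-fold higher in TNFR2- Tregs. At an adjusted p under 0.05, 4.52% of all genes tested had more and 3.39% had less transcript in TNFR2+ Tregs, together 7.91%, against 30.0% of these chains. The libraries of the groups did not overlap in 5 of the 10 chains, 1 higher and 4 lower in TNFR2+ Tregs, against 15.4% of all genes tested. The median log2 fold change was -0.16 over the chains and -0.01 over all genes tested. With only genes at a mean of at least 50, 1129 of 10245 passed. Because the chains were chosen with earlier results known, these shares describe them and are no test of the group. The test was limma on log2(normalized count + 1), with Benjamini-Hochberg adjustment over all 13990 genes, and fold changes in the text are TNFR2+ over TNFR2- Tregs unless stated.

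The upstream sequence of the chains that were lower in TNFR2+ Tregs, Il6ra and Il4ra, is shown with that of Il21r, which lies next to Il4ra on the same strand with 23954 bases and 0 annotated genes between them. The sequences are from RefSeq on GRCm38.p6 and read 5' to 3' on the strand of the gene, up to the base before the first annotated exon. Il6ra lies on the minus strand (chr3:89913197-89913446), and Il4ra (chr7:125552021-125552119) and Il21r (chr7:125603179-125603428) lie on the plus strand. Capitals mark the FOXO motif, and no other motif searched occurred in these 3 stretches.
Il6ra: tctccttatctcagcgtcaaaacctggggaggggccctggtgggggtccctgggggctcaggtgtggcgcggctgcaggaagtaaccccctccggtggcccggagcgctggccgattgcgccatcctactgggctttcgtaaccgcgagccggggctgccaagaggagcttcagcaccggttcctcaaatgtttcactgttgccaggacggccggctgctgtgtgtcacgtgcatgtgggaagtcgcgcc
Il4ra: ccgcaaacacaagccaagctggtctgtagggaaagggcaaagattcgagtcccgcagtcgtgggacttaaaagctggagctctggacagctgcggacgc
Il21r: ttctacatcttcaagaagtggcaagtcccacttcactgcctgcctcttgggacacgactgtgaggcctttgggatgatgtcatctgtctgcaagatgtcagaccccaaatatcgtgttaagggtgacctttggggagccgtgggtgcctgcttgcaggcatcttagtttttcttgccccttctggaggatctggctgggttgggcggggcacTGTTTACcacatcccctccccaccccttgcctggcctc
The motifs searched, on both strands, were TTCNNNGAA for STAT factors, GTAAACA for FOXO factors, CCGGAA for ETS factors and CTTTGAT for TCF and LEF factors. RefSeq windows of 300 bases (250 before and 50 after the start) were at hand for 7 of the 10 chains, namely Il2ra, Il2rg, Il7r, Il4ra, Il21r, Il6ra and Il6st. The STAT motif stood in 1 of these 7 windows, that of Il7r, and in 8.30% of the 32851 windows of all genes. The FOXO motif stood in the window of Il21r and in 3.65% of all windows. The ETS motif stood in 2 windows, those of Il6st and Il2rg, and in 14.9% of all windows, and the TCF and LEF motif stood in 0 of the 7 and in 3.73% of all windows. A match describes the letters only.

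The libraries held 9576920 to 11492762 normalized counts, and the smallest steps between low values gave estimated depths of 9100000 to 12110000 reads. Tnfrsf1b, which encodes TNFR2, was sequenced at 3148, 1840, 2631 and 2383 normalized counts in TNFR2+ replicates 1 to 4, and at 1266, 1563, 1177 and 1277 in TNFR2- replicates 1 to 4. Every TNFR2+ library was above every TNFR2- library, and the log2 fold change was 0.90 ± 0.16 (SE), at an adjusted p of 0.00449 (0.0574 without an intensity trend for the variances). Cd4, Cd3e and Foxp3 were high in all 8 libraries, but levels of Treg markers were not all equal between the groups. Of 10 Treg markers tested, 5 were higher and 0 lower in TNFR2+ Tregs. The higher ones were Cd3e (1.43-fold), Ikzf2 (1.85-fold), Ctla4 (1.85-fold), Tnfrsf18 (1.83-fold) and Nrp1 (1.67-fold). Foxp3 was at 2812 to 3313 in TNFR2+ and at 3292 to 4033 in TNFR2- Tregs (adjusted p = 0.232). By flow cytometry, the study reported more Foxp3 protein in TNFR2+ Tregs of another reporter strain. TNFR2- replicate 3 stood apart from the other 7 libraries on the second principal component (91.3 against -39.1 to 18). In sorted bulk populations, fewer cells that express a gene and less RNA per cell cannot be told apart.

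**Figure D1:**
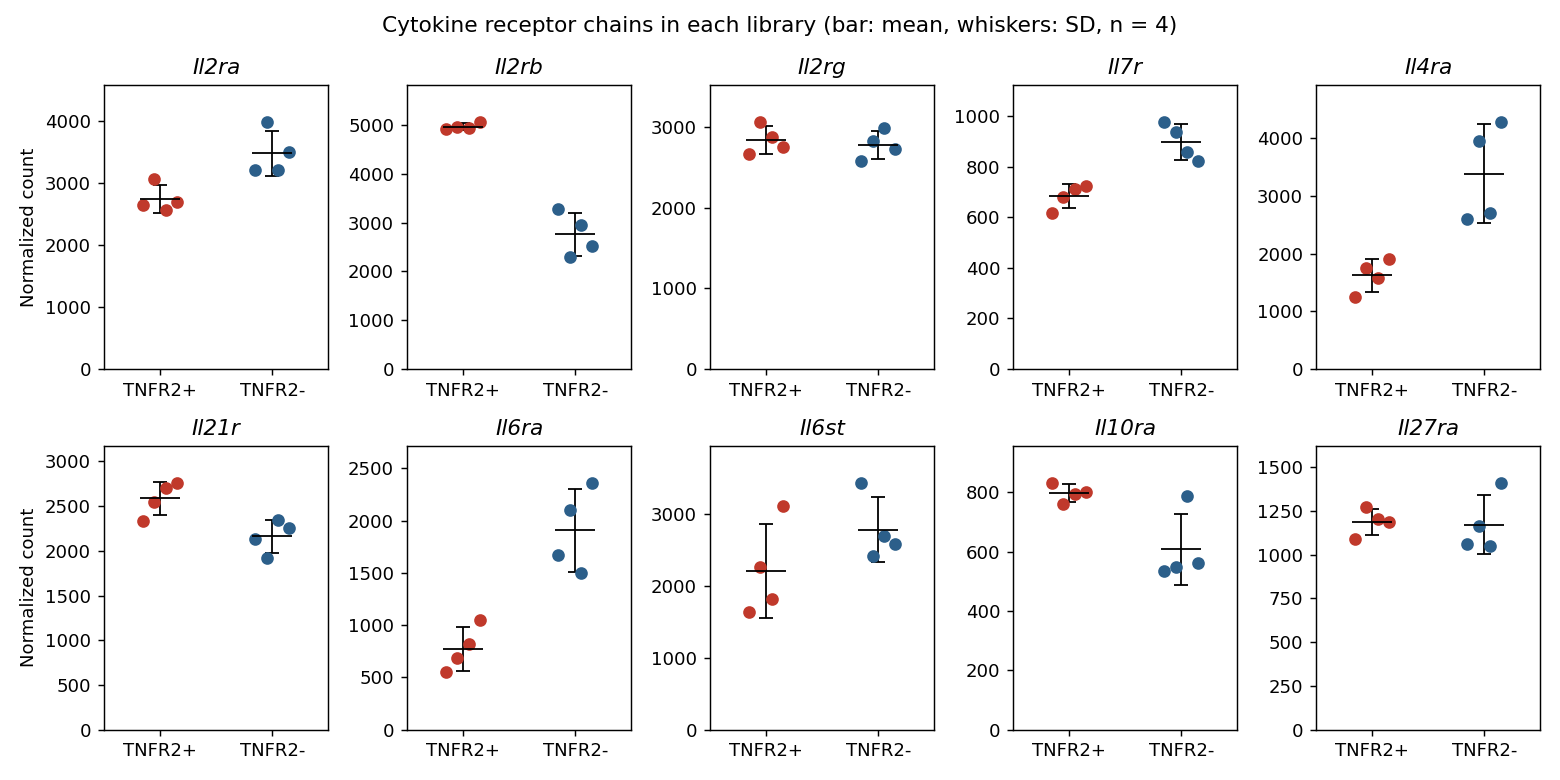
Normalized counts (y axis, from 0) of the 10 receptor chains in the 4 TNFR2+ and the 4 TNFR2- Treg libraries (points), with the mean and SD. Il2rb was at 4920 to 5062 in TNFR2+ Tregs, above all TNFR2- libraries, and Il2ra, Il7r, Il4ra and Il6ra were lower in each TNFR2+ library than in any TNFR2- library.

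Il2rb (GRCm38 chr15:78479256-78495271, minus strand), the beta chain of the IL-2 and IL-15 receptors, reached 4920, 4952, 4940 and 5062 normalized counts in TNFR2+ replicates 1 to 4. It was at 3274, 2285, 2951 and 2525 in TNFR2- replicates 1 to 4. The TNFR2+ libraries lay close together, with a coefficient of variation of 1.28% against 16.0% in TNFR2- Tregs, and all were above the highest TNFR2- library. The log2 fold change was 0.86 ± 0.12 (SE, 95% interval 0.60 to 1.12), with an adjusted p of 0.000994, and it passed in 18 of 18 alternative fits. NK cells and CD8+ T cells also express Il2rb. Summed counts of 8 cytotoxic lymphocyte markers, of which 6 were in the table, were 142 to 212 in TNFR2+ and 93.4 to 170 in TNFR2- Tregs. Of these, Nkg7 was higher in TNFR2+ Tregs (64.3 ± 19.4 against 7.83 ± 7.29 normalized counts, SD, n = 4, adjusted p = 0.00927), and it was the only one of the 4 tested that passed. Cd8b1 (46.6 ± 15.1 against 47.8 ± 20.9), Eomes (25.4 ± 9.45 against 28.5 ± 17.5) and Prf1 (6.92 ± 3.91 against 23.4 ± 18.2) overlapped between the groups, and Cd8a and Klrb1c, too low to be tested, reached 24.2 and 31.2. Their part in the level of Il2rb was not tested.

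Il2ra (chr2:11642807-11693193, plus strand), the alpha chain, did not pass the test. It was at 2645, 3070, 2561 and 2690 normalized counts in TNFR2+ replicates 1 to 4, and at 3219, 3990, 3222 and 3497 in TNFR2- replicates 1 to 4. Every TNFR2+ library was below every TNFR2- library, but the groups came close (3070 against 3219). With an adjusted p of 0.086, its log2 fold change of -0.34 ± 0.11 (SE, 95% interval -0.59 to -0.10) missed the threshold, as it did in all 18 alternative fits. An exact two-sided permutation test over the 70 relabellings of the libraries gave an unadjusted 0.0286, the smallest p that 4 against 4 libraries allow. Any gene whose groups do not overlap has this p, and 15.4% of all genes tested did not overlap. The RNA difference, which did not pass, was not in the direction of the protein. By flow cytometry, the study reported more CD25 in TNFR2+ Tregs of another reporter strain. In spleens of tumor-bearing mice, it also reported more CD25 in TNFR2+ Tregs without tumor necrosis factor than in TNFR2- Tregs with it.

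Il2rg (chrX:101264378-101268255, minus strand), the common gamma chain, was at 2666, 3063, 2882 and 2748 normalized counts in TNFR2+ replicates 1 to 4 and at 2574, 2821, 2988 and 2723 in TNFR2- replicates 1 to 4. The groups overlapped over almost their whole range. Its log2 fold change was 0.03 ± 0.11 (SE, adjusted p = 0.893), and the 95% interval ran from -0.20 to 0.26. Gm20489, an annotated gene that overlaps Il2rg on the same strand, was listed at 6.77 to 32.2 in TNFR2+ and at 0 to 10.5 in TNFR2- Tregs, and reads shared between them are assigned with uncertainty.

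Ratios of the 3 IL-2 receptor chains were taken within each library. The log2 ratio of Il2ra to Il2rb was -0.86 ± 0.12 in TNFR2+ and 0.34 ± 0.37 in TNFR2- Tregs (SD, n = 4), so that Il2ra counts relative to Il2rb were 2.31-fold higher in TNFR2- Tregs. The highest TNFR2+ library (-0.69) was below the lowest TNFR2- library (-0.02). The log2 ratio of Il2rb to Il2rg was 0.81 ± 0.09 against -0.02 ± 0.27, again without overlap. That of Il2ra to Il2rg was -0.05 ± 0.08 against 0.32 ± 0.16, with the groups apart by a short distance (0.00 against 0.11). These ratios use the same counts as the fold changes and carry no test of their own.

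**Figure D2:**
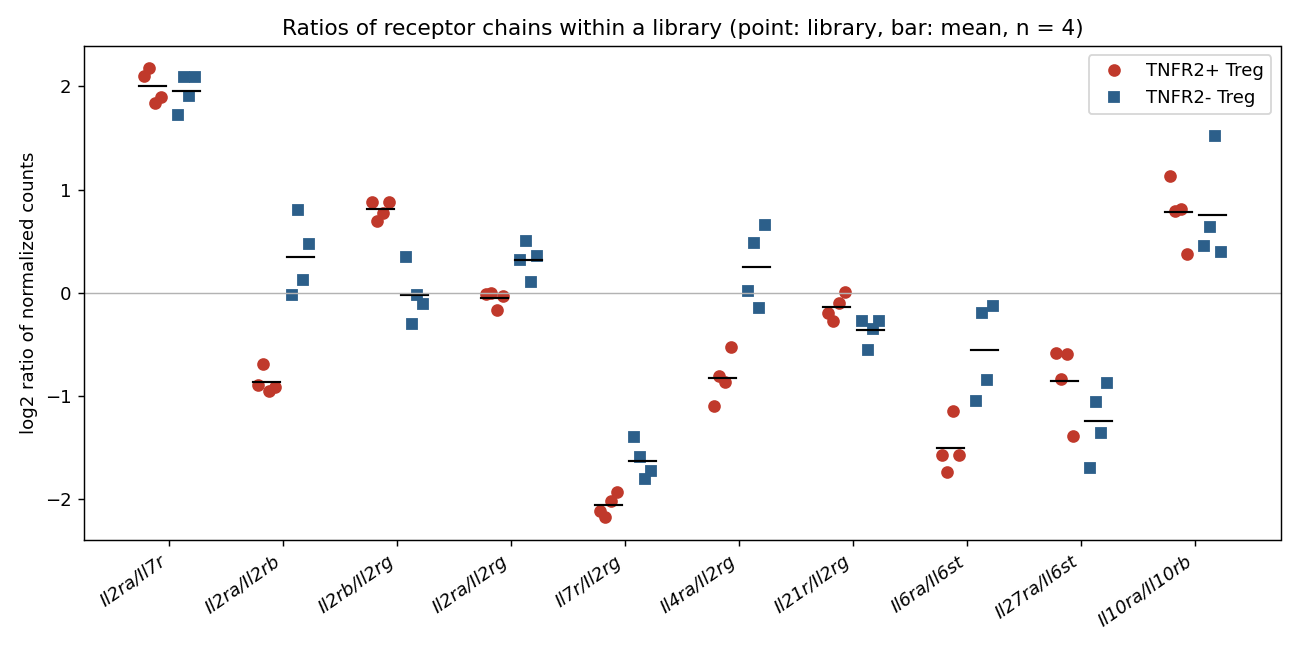
Log2 ratios of normalized counts of pairs of chains within each library (y axis), with TNFR2+ libraries as circles, TNFR2- libraries as squares and group means as bars. The ratio of Il2ra to Il2rb ran from -0.95 to -0.69 in the TNFR2+ libraries and from -0.02 to 0.80 in the TNFR2- libraries, whereas the ratio of Il2ra to Il7r overlapped.

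Among the chains that pair with the common gamma chain, Il4ra was lower in TNFR2+ Tregs, and Il7r and Il21r did not pass the test. Il4ra (chr7:125552120-125579474, plus strand), which binds IL-4 and also serves the IL-13 receptor, was at 1251, 1754, 1580 and 1914 normalized counts in TNFR2+ replicates 1 to 4. It was at 2606, 3956, 2706 and 4283 in TNFR2- replicates 1 to 4. The TNFR2- libraries fell into a lower and a higher pair, and both pairs were above all TNFR2+ libraries. The log2 fold change was -1.04 ± 0.18 (SE, 95% interval -1.44 to -0.65), with an adjusted p of 0.00395. It passed in 17 of 18 alternative fits and missed the threshold when no intensity trend was used for the variances (adjusted p = 0.0571). Gm44876, annotated antisense to Il4ra and reaching its exons, had no values in these data, so its level is not known.

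Il21r (chr7:125603429-125633570, plus strand), the neighbour of Il4ra and the ligand-binding chain of the IL-21 receptor, was at 2337, 2543, 2700 and 2761 normalized counts in TNFR2+ replicates 1 to 4 and at 2130, 1917, 2343 and 2252 in TNFR2- replicates 1 to 4. A single TNFR2+ library, replicate 1, lay within the TNFR2- range. Its log2 fold change of 0.26 ± 0.11 (SE, 95% interval 0.01 to 0.51) did not pass (adjusted p = 0.193). The FOXO motif printed in capitals for Il21r was not in the stretch shown for Il4ra, which is shorter (99 against 250 bases). It was also absent from the window of 300 bases of Il4ra.

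Il7r (chr15:9505788-9530176, minus strand), the ligand-binding chain for IL-7, a survival factor of resting T cells, was at 618, 680, 713 and 722 normalized counts in TNFR2+ replicates 1 to 4 and at 978, 936, 857 and 823 in TNFR2- replicates 1 to 4. All TNFR2+ libraries were below all TNFR2- libraries. The log2 fold change was -0.39 ± 0.14 (SE, 95% interval -0.69 to -0.10), with an adjusted p of 0.101 and no pass in 18 alternative fits. The log2 ratio of Il2ra to Il7r was 2.00 ± 0.16 in TNFR2+ and 1.95 ± 0.18 in TNFR2- Tregs (SD, n = 4), and the groups overlapped.

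Relative to Il2rg, the log2 ratios were -0.82 ± 0.23 against 0.25 ± 0.38 for Il4ra, -2.06 ± 0.11 against -1.63 ± 0.18 for Il7r, and -0.14 ± 0.12 against -0.36 ± 0.13 for Il21r (TNFR2+ against TNFR2- Tregs, SD, n = 4). The groups did not overlap in these 3 ratios, although for Il21r they nearly touched (-0.27 in both). B cells also carry Il4ra and Il21r. The summed counts of B cell markers (8 of 9 in the table) were 3994 to 6086 in TNFR2+ and 1798 to 2933 in TNFR2- Tregs, most of it from Ighm, and 465 to 561 against 215 to 530 without Ighm. Of the 6 B cell markers tested, Ighm passed (4608 ± 883 against 1911 ± 391, SD, n = 4, adjusted p = 0.000745). Cd22 was at 273 to 350 in TNFR2+ and at 54.7 to 223 in TNFR2- Tregs, without overlap (adjusted p = 0.0612). Ighd (57.3 ± 13.2 against 26.4 ± 20.0), Cd79b (38.7 ± 20.5 against 24.7 ± 15.3), Ms4a1 (45.0 to 79.9 against 19.6 to 99.4) and Ebf1 (25.9 to 50.5 against 41.4 to 80.4) overlapped. The defining genes Cd79a and Pax5, too low to be tested, reached 6.10 in TNFR2- replicate 1 and 41.5 in TNFR2- replicate 3. TNFR2- replicate 3 also held the highest Ms4a1 and Ebf1 of the 8 libraries, but not the highest Cd79a, Cd79b, Cd22, Ighm or Ighd. The part of these transcripts in the levels of Il4ra and Il21r was not tested.

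Of the chains of the IL-6 receptor, Il6ra passed the test and Il6st did not, and the difference between them was described only as a ratio. Il6ra (chr3:89864059-89913196, minus strand), which binds IL-6, was at 551, 682, 822 and 1045 normalized counts in TNFR2+ replicates 1 to 4 and at 1667, 2103, 1498 and 2363 in TNFR2- replicates 1 to 4. All TNFR2+ libraries were below all TNFR2- libraries, and both groups were spread widely. The log2 fold change was -1.31 ± 0.20 (SE, 95% interval -1.75 to -0.88), the largest in size among the 10 chains, with an adjusted p of 0.00177 and a pass in 18 of 18 alternative fits. Gm42809, a gene annotated antisense to Il6ra and reaching into its exons, was at 14.9 to 33.5 in TNFR2+ and at 42.3 to 114 in TNFR2- Tregs. Whether strand was used in the quantification is not given in the sources used here, so reads of the pair cannot be told apart, and both were lower in TNFR2+ Tregs. Myeloid cells also express Il6ra. The summed counts of myeloid markers (7 of 12 in the table) were 207 to 286 in TNFR2+ and 191 to 285 in TNFR2- Tregs, most of it from Cst3 (166 to 214 against 118 to 159). Itgam was at 2.92 to 8.80 in TNFR2+ and at 10.6 to 21.2 in TNFR2- Tregs (adjusted p = 0.375). Its groups did not overlap and went in the direction of Il6ra, whereas Cd68 overlapped. The defining gene Csf1r was listed at 0 in the TNFR2+ libraries and reached 9.19 in TNFR2- Tregs. Fcgr3 reached 49.5 in TNFR2- replicate 4 and 5.08 in TNFR2+ replicate 3. Flt3 reached 21.8 in TNFR2- replicate 3 and 11.9 in TNFR2+ replicate 2. S100a9 was above 0 only in TNFR2+ replicate 1, at 9.84. Csf1r, Fcgr3, Flt3 and S100a9 were too low to be tested. By limma 0 of the 3 myeloid markers tested passed (0 at an unadjusted p under 0.05), and their part in the level of Il6ra was not tested.

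Il6st (chr13:112464070-112510086, plus strand), the shared signalling chain gp130, was at 1632, 2262, 1817 and 3109 normalized counts in TNFR2+ replicates 1 to 4 and at 3435, 2414, 2688 and 2580 in TNFR2- replicates 1 to 4. The groups overlapped through TNFR2+ replicate 4, which exceeded 3 of the 4 TNFR2- libraries. Its log2 fold change of -0.37 ± 0.19 (SE, 95% interval -0.77 to 0.04) did not pass (adjusted p = 0.265), nor did it without TNFR2+ replicate 4 (log2 fold change -0.55, adjusted p = 0.0639). The log2 ratio of Il6ra to Il6st was -1.50 ± 0.25 in TNFR2+ and -0.55 ± 0.46 in TNFR2- Tregs (SD, n = 4), without overlap.

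Il27ra (chr8:84030294-84042589, minus strand), the partner of gp130 for IL-27, was at 1091, 1271, 1202 and 1187 normalized counts in TNFR2+ replicates 1 to 4 and at 1060, 1162, 1048 and 1411 in TNFR2- replicates 1 to 4. The TNFR2+ libraries lay inside the TNFR2- range. Its log2 fold change was 0.03 ± 0.14 (SE, adjusted p = 0.931), with a 95% interval from -0.27 to 0.33. Palm3, which overlaps Il27ra on the opposite strand, did not exceed 39.2 in any library.

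Il10ra (chr9:45253837-45269149, minus strand), the ligand-binding chain for IL-10, was at 833, 760, 794 and 803 normalized counts in TNFR2+ replicates 1 to 4 and at 537, 548, 788 and 562 in TNFR2- replicates 1 to 4. Only TNFR2- replicate 3, the library that stood apart, reached the TNFR2+ range. The log2 fold change was 0.41 ± 0.16 (SE, 95% interval 0.06 to 0.75), with an adjusted p of 0.143. Without TNFR2- replicate 3 it was 0.54 with an adjusted p of 0.0344, and Il10ra then passed the test as a second chain higher in TNFR2+ Tregs. That library also held the highest Ms4a1, Ebf1 and Pax5, and the part of other cells in its Il10ra level was not tested. Relative to its partner Il10rb, the log2 ratio was 0.78 ± 0.31 against 0.75 ± 0.52 (SD, n = 4), with overlap.

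**Figure D3:**
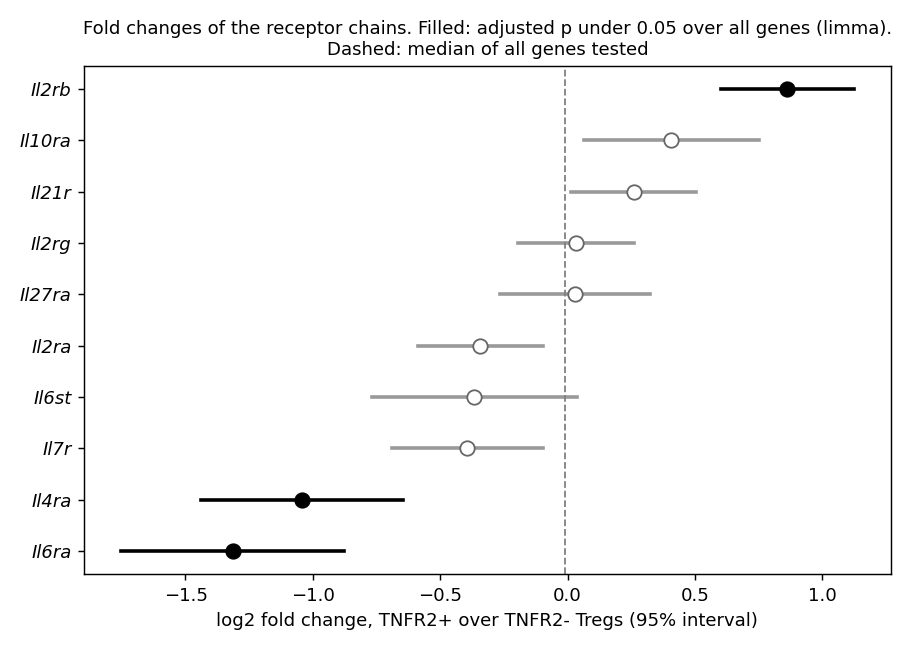
Log2 fold changes of the 10 receptor chains (x axis, TNFR2+ over TNFR2- Tregs) with 95% intervals from limma, ordered by size, and filled where the adjusted p over all genes was under 0.05. Il2rb (0.86), Il4ra (-1.04) and Il6ra (-1.31) are filled, and the dashed line marks the median of all genes tested (-0.01).

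Levels of different chains were compared per kilobase of the longest annotated coding transcript. In TNFR2+ Tregs Il2rg led at 1700 ± 104 normalized counts per kilobase, followed by Il2rb at 1185 ± 15.2, Il21r at 1034 ± 75.8, Il2ra at 621 ± 51.1 and Il27ra at 446 ± 27.7 (SD, n = 4). By this length, the libraries of each of these did not overlap with those of its neighbour. Il4ra (309), Il6st (254) and Il10ra (228) followed and overlapped from one to the next, and Il7r (193) and Il6ra (89.7) came last and were apart. In TNFR2- Tregs Il2rg also led at 1663 ± 104, apart from the rest. Il21r (865), Il2ra (789), Il2rb (658), Il4ra (645), Il27ra (439) and Il6st (320) then formed a run in which neighbours overlapped. Il7r (254), Il6ra (221) and Il10ra (174) closed the order, and neighbours among them overlapped as well. Il2rb was above 97.6% of the protein-coding genes tested (mean of at least 10) per kilobase in TNFR2+ and above 94.8% in TNFR2- Tregs. Il6ra was above 55.5% and 79.6% of them. When the union of all annotated exons served as length, Il2rg (1117 to 1283) and Il2rb (1148 to 1181) overlapped in TNFR2+ Tregs, and Il10ra (228) stood before Il6st (199). In TNFR2- Tregs Il2rb (644) then stood before Il2ra (610), and Il6ra (221) before Il7r (193).

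**Figure D4:**
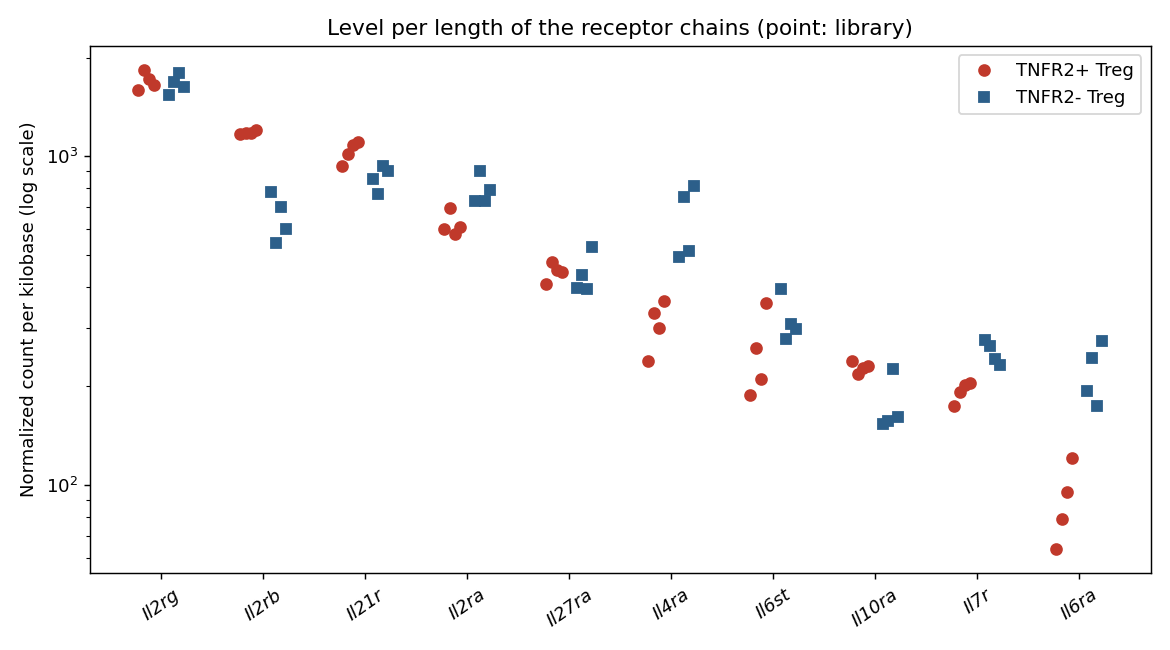
Normalized counts per kilobase of the longest coding transcript (y axis, log scale) for each chain, ordered by the TNFR2+ mean, with a point per library (circles TNFR2+, squares TNFR2-). Il2rg was highest in both populations (means 1700 and 1663), and Il6ra was lowest in TNFR2+ Tregs (89.7).

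The genes whose profile over the 8 libraries was nearest to that of a chain were found among 11522 protein-coding genes by the root mean square difference of centred log2 values. For Il2rb these were Bag3 (0.08), Spry1 (0.08) and Sft2d2 (0.09). For Il4ra they were Ifi206 (0.10), Pik3ip1 (0.11) and Ppp1r3b (0.12), and for Il6ra they were Ifngr2 (0.11), 9930111J21Rik1 (0.12) and Jun (0.14).

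Of 27 other receptor chains, 18 were tested, and 1 was higher and 1 lower in TNFR2+ Tregs. Ifngr2, the signalling chain of the interferon gamma receptor and the gene nearest to Il6ra, fell by 1.17 on the log2 scale, from 530 ± 78.8 normalized counts in TNFR2- to 238 ± 54.3 in TNFR2+ Tregs (SD, n = 4, adjusted p = 0.00444). Its partner Ifngr1 was at 2405 ± 497 and 1620 ± 230 (log2 fold change -0.55, adjusted p = 0.0591), which passed without TNFR2- replicate 1 (0.0143), with a replicate block (0.0175) and with equal upper quartiles (0.0498). Crlf2, the chain that binds the cytokine TSLP and pairs with Il7r, was higher at 408 ± 78.5 against 245 ± 22.9 (log2 fold change 0.72, adjusted p = 0.0414). It kept its call without TNFR2+ replicate 4 but lost it without any one of the other 7 libraries (adjusted p 0.0536 to 0.128), with a replicate block (0.0718), with quantile normalization (0.0631) and with a filter at a mean of 1 (0.0529). The type I interferon receptor chains Ifnar1 and Ifnar2 had log2 fold changes of -0.03 and 0.24 (adjusted p = 0.939 and 0.464).

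Of 17 cytokine genes in the list of ligands, 10 were in the table and 6 were tested, of which 2 rose and 0 fell (by unadjusted p under 0.05, also 2 and 0). Ebi3, a subunit of IL-27 and IL-35, was at 191 ± 42.1 normalized counts in TNFR2+ and 34.6 ± 23.6 in TNFR2- Tregs (log2 fold change 2.66, adjusted p = 0.00398). Il10, whose receptor includes Il10ra, was at 139 ± 51.2 against 23.6 ± 15.6 (log2 fold change 2.79, adjusted p = 0.0121, and 0.0528 without TNFR2+ replicate 3). For the protein, the study reported less IL-10 from TNFR2+ Tregs, measured after restimulation of sorted cells. Lif, which signals through gp130, was at 79.5 ± 24.7 against 82.8 ± 84.1 (adjusted p = 0.756).

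Among the 11 JAK and STAT genes, 1 was higher and 1 lower. Jak1, the kinase bound by Il2rb, Il4ra, Il7r and gp130, fell by 0.56 on the log2 scale, from 9843 ± 1188 to 6668 ± 400 normalized counts (SD, n = 4, adjusted p = 0.00664). Jak2 was at 3893 ± 281 in TNFR2+ and 2699 ± 475 in TNFR2- Tregs (log2 fold change 0.54, adjusted p = 0.025), and lost its call without TNFR2+ replicate 1, 2 or 3 or TNFR2- replicate 2 or 4 (adjusted p 0.0538 to 0.0779). For Jak3, the kinase of the common gamma chain, the log2 fold change was 0.37 (adjusted p = 0.183). For Stat5a and Stat5b it was 0.12 and -0.38 (adjusted p = 0.652 and 0.167), and for Stat3 it was 0.21 (adjusted p = 0.401). Jak3, Stat5a and Stat5b were outside the rule for naming genes and were picked with their values known.

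Feedback inhibitors of these receptors numbered 17, all tested, of which 2 rose and 0 fell (by unadjusted p under 0.05, 3 and 0). Cish, a STAT5 target that dampens IL-2 signalling, was at 1962 ± 255 normalized counts in TNFR2+ and 1203 ± 133 in TNFR2- Tregs (log2 fold change 0.70, adjusted p = 0.00749). Socs5, which inhibits IL-4 receptor signalling, was at 314 ± 67.5 against 164 ± 39.6 (log2 fold change 0.95, adjusted p = 0.0359), and lost its call without TNFR2+ replicate 1, 2 or 3 or TNFR2- replicate 1 or 4 (adjusted p 0.0722 to 0.114). Socs3, which inhibits gp130, was at 1775 ± 495 against 1871 ± 349 (adjusted p = 0.81), and for the phosphatase gene Ptpn1 the log2 fold change was 0.22 (adjusted p = 0.427).

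Of 18 genes listed as targets of IL-2 and STAT5, 17 were tested, with 5 higher and 1 lower in TNFR2+ Tregs, and the median log2 fold change was -0.03. The higher ones were Cish and Il10, Bcl2l1, which encodes the survival protein Bcl-xL (643 ± 136 against 272 ± 73.1 normalized counts, log2 fold change 1.26, adjusted p = 0.00475), Nfil3 (2189 ± 447 against 745 ± 235, log2 fold change 1.59, adjusted p = 0.001) and Prdm1. Nfil3 and Prdm1 encode transcription factors, the latter Blimp-1 of effector Tregs. Prdm1 was at 509 ± 212 against 168 ± 64.4 (log2 fold change 1.53, adjusted p = 0.021), with overlap between the groups, and lost its call in 6 of the 8 fits without a library, those without TNFR2+ replicate 1, 2 or 3 or TNFR2- replicate 1, 2 or 4 (adjusted p 0.0532 to 0.076). Bcl2, another survival gene, fell by 1.03 on the log2 scale, from 2803 ± 527 to 1369 ± 211 (adjusted p = 0.00191).

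Genes for trafficking and shedding of these receptors did not pass (0 of 7 tested by limma, 3 at an unadjusted p under 0.05). Adam10, a protease that sheds Il6ra, differed by 0.33 on the log2 scale (adjusted p = 0.158), and the ubiquitin ligase genes Cblb and Cbl by -0.30 and -0.25 (adjusted p = 0.154 and 0.246). Of 13 transcription factors known to act on Il7r or Il2ra, 2 were higher and 3 lower. Rel, an NF-kB subunit that acts on Il2ra, was at 7399 ± 402 in TNFR2+ and 4015 ± 493 normalized counts in TNFR2- Tregs (log2 fold change 0.89, adjusted p = 0.000498), and Nfatc1 at 7040 ± 1039 against 3358 ± 921 (log2 fold change 1.10, adjusted p = 0.00253). Lef1, a factor of resting T cells, fell by 1.34 on the log2 scale (3434 ± 552 to 1348 ± 140, adjusted p = 0.000238). Tcf7 and Foxo3 fell by 0.45 and 0.67 (adjusted p = 0.0268 and 0.0245). Tcf7 lost its call without TNFR2+ replicate 1, 2, 3 or 4 or TNFR2- replicate 2 or 4 (adjusted p 0.0574 to 0.0806) and with quantile normalization (log2 fold change -0.27, adjusted p = 0.127), and Foxo3 without TNFR2+ replicate 1, 2 or 3 or TNFR2- replicate 1 or 2 (0.0544 to 0.0832).

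**Figure D5:**
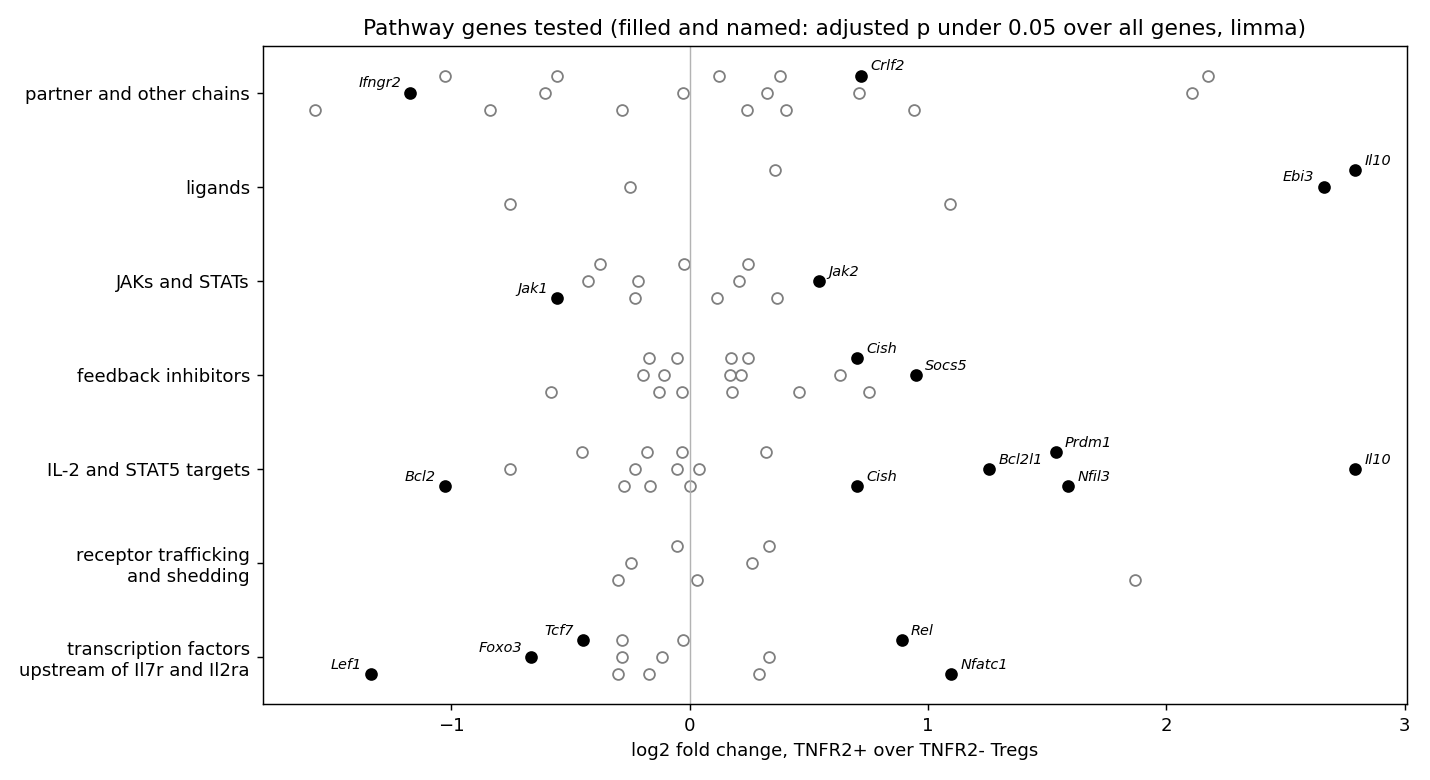
Log2 fold changes (x axis, TNFR2+ over TNFR2- Tregs) of the tested genes in 7 pathway lists (rows), with filled and named points at an adjusted p under 0.05 over all genes. The lists overlap, since Cish and Il10 appear in more than 1, and 17 different genes passed in all.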

How the data were processed

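The authors sorted the cells, prepared total RNA libraries with a SMARTer Stranded Pico Input kit and sequenced them on an Illumina NovaSeq instrument. Per the labels and the study's methods, reads were trimmed with Trim Galore, quantified with Salmon 1.3.0 on the Ensembl GRCm38 transcriptome and normalized with DESeq2 1.28, and the deposited signal is the normalized count per gene, with replicates kept apart. The step from transcripts to genes is not given in the sources used here. Low values lay within 0.1 of whole steps in 69.7% to 96.5% of cases in 2806 single-transcript genes, so reads of all genes were not recovered and no count model was fitted. Counting error is not the only error in these values.

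Of 20172 identifiers, 20008 matched GENCODE on GRCm38. Genes with a mean of at least 10 were tested with limma 3.58.1 in R 4.3.3 (intensity trend, pseudocount 1, two-sided, threshold 0.05 on the Benjamini-Hochberg adjusted p). The procedure was tested on simulated data. The 10 chains and the gene lists were chosen with earlier results of these data known. All chains were named, as were the list genes past the threshold and, where fewer than 3 passed, the 3 with the highest mean, except for a gene that is not reported here. The same-group libraries differed by more than counting noise and were counted separately. Alternatives were 10 other settings and 8 fits without a library. A blastn 2.17.0 search at 95% identity over 50% of the transcript found 0 near-identical copies of the named chains and list genes. Other steps used python 3.11.15, pandas 2.3.3 and matplotlib 3.10.9.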

Additional observations from a re-analysis of the deposited data

Results flagged for a closer look

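Of 96 groups of 4 libraries checked for a single distant value, 4 held one, where chance flags about 5% of groups. Il10ra in TNFR2- replicate 3 was at 788 normalized counts, far above the other TNFR2- libraries. Cblb in TNFR2- replicate 3 was at 2690, far below its group. Cbl in TNFR2+ replicate 1 was at 1303, far below its group. Jak2 in TNFR2+ replicate 4 was at 3471, far below its group.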

How the results depend on the processing

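In 173 of 180 refits of the 10 receptor chains, the direction and the side of the threshold were those reported. Without an intensity trend, 283 genes were higher and 182 lower in TNFR2+ Tregs, 1 receptor chain was lower (Il4ra had an adjusted p of 0.0571) and 7 pathway genes passed, so Cish, Il10, Jak1, Jak2, Socs5, Prdm1, Nfatc1, Foxo3, Tcf7 and Crlf2 lost their calls. Leaving out 1 library at a time gave 344 to 761 higher and 278 to 540 lower genes, 1 to 2 higher receptor chains (Il10ra without TNFR2- replicate 3) and 10 to 18 pathway genes. The lowest counts were without TNFR2+ replicate 2 (higher), TNFR2- replicate 2 (lower) and TNFR2+ replicate 3 (pathway genes). Log2 fold changes of 5 genes that did not pass the test changed sign, with ranges without 1 library of -0.005 to 0.069 (Il2rg), -0.02 to 0.12 (Il27ra), -0.10 to 0.041 (Ifnar1), -0.23 to 0.12 (Socs3) and -0.053 to 0.95 (Lif). Rescaling to protein-coding sums gave 0.041 and quantile normalization 0.051 for Ifnar1. The cause was not tested. Whether same-numbered libraries came from the same mice or sort is not given in the sources used here. Deviations from the group means correlated at -0.04 to 0.00 between same-numbered libraries, which cannot decide this. A replicate block gave 675 higher and 508 lower genes, with 1 receptor chain higher and 2 lower. With union exon lengths, normalized counts per kilobase in TNFR2+ and TNFR2- Tregs were 480 and 610 for Il2ra, 1190 and 1163 for Il2rg, 147 and 193 for Il7r, 778 and 650 for Il21r, and 340 and 335 for Il27ra, with 1159 for Il2rb in TNFR2+ and 250 for Il6st in TNFR2- Tregs. With 4 libraries a group, an exact permutation p cannot go below 0.0286.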
